A study of Mus musculus with 2 samples.

Results

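The cytosolic ribosomal protein genes were followed through the cell types of injured and uninjured mouse muscle. Members were all gene symbols that begin with Rpl or Rps and a digit, together with Rplp0, Rplp1, Rplp2 and Rpsa, without pseudogenes or S6 kinases and with at least 20 UMIs (unique molecular identifiers, counts of captured transcripts) over both libraries. Of 28625 symbols 87 matched, and 86 passed the UMI minimum. The symbol left out, Rpl10l, had 0 UMIs. The members comprised 43 proteins of the large subunit, the 3 proteins of its stalk and 31 of the small subunit, which together make a core of 77 genes. A further 8 were paralogs or near copies of core genes. The last, Rps19bp1, matched by name only, since it encodes a partner of a ribosomal protein and not a part of the ribosome. All 86 were placed on 19 chromosomes of the GRCm38 annotation.

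The data were 2 droplet-based 3' single-cell libraries from the tibialis anterior, a muscle of the shin, of mice of the strain C57B/6 at an age of 12 weeks. The titles call the first library an uninjured control, and the second came from muscle taken 1 day, or 24 hours, after an intramuscular injection of 1.2% BaCl, a salt that kills muscle fibres and leaves their stem cells able to rebuild them. The treatment text of both libraries names this injection, so the labels leave unclear whether the control muscle was injected. How many animals each library holds is not given either, and with 1 library per group no difference could be tested. Every interval below is a 95% interval and covers counting error only.

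The libraries held 5581 and 4489 barcodes with 22994502 and 39014762 UMIs, and 5139 uninjured and 4260 injured cells were kept. Injured cells were deeper, with a median of 7282 UMIs per barcode against 3237, and 33 barcode sequences occurred in both libraries. Xist had 16575 UMIs in uninjured and 0 in injured cells, and the Y-linked Ddx3y 0 and 2138, so the libraries also differed in sex-linked transcripts. This difference coincides with injury in every ratio below, and the 2 cannot be told apart. Cells were clustered without the 86 members, so that their levels did not enter the clustering directly. Doublet scores, and the marker levels used for naming, were computed with all genes. Comparisons were made for groups that reached 50 cells in both libraries, namely endothelial-like, fibro-adipogenic progenitor-like (connective tissue cells between the fibres), tenocyte-like, glial-like and monocyte and macrophage-like cells. Cluster 9, led by pericyte and smooth muscle genes but with 12 of 12 endothelial markers present, was compared under its number. Different clusters mostly held a class in the 2 libraries: fibro-adipogenic cells lay in clusters 6, 15 and 23 when uninjured and in cluster 11 when injured, tenocyte-like cells in clusters 7 and 19, and monocyte and macrophage-like cells in cluster 21 and in clusters 1, 4 and 5.

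A ribosome reads messenger RNA on its small subunit and joins amino acids on its large subunit, and each subunit is built in the nucleolus from ribosomal RNA and many proteins. In growing cells these proteins are among the most abundant messages, and their translation is set together by the growth regulator mTOR. Many of these messages start with a C followed by an unbroken run of C and T bases, the terminal oligopyrimidine tract, through which that control acts. Muscle stem cells raise ribosome production when they leave rest after damage.

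Windows around the annotated transcription start are printed for genes that stood at the ends of the results, since the tract lies there. Each runs 5′ to 3′ on the gene's strand from 30 bases before the start to the 20 bases from the start on, from RefSeq on GRCm38.p6, and capitals mark the longest run of C and T that reaches within 10 bases of the start. Rps2, Rpsa, Rpl12 and Rps26 had some of the highest ratios after injury. Rps27, Rpl35a and Rpl37a had low ratios, and Rps27l is the paralog of Rps27 that went the other way.
Rps2, chr17:24720033-24720082, plus strand: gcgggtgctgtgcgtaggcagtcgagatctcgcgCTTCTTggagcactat
Rpsa, chr9:120127736-120127785, plus strand: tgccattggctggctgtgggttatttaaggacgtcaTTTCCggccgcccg
Rpl12, chr2:32961682-32961731, plus strand: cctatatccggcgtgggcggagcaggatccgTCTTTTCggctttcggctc
Rps26, chr10:128626487-128626536, minus strand: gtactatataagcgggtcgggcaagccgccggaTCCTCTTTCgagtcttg
Rps27, chr3:90213629-90213678, minus strand: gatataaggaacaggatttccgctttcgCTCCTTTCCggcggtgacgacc
Rpl35a, chr16:33056452-33056501, plus strand: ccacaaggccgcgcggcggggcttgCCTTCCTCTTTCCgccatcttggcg
Rpl37a, chr1:72711230-72711279, plus strand: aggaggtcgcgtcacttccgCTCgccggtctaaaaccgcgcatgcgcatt
Rps27l, chr9:66946056-66946105, plus strand: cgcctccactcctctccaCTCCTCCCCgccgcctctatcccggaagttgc

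Runs of at least 8 C or T bases, searched on the gene's strand only, were present in 27 of the 57 core genes with a RefSeq window, or 47.4%. The share was 16.1% of 27025 genes with a window of the same length and 13.2% of the 68 mitochondrial ribosomal proteins with one. A match is a description of these letters, and annotated starts can lie some bases from the start used in a cell. Among the printed genes with high ratios Rps2, Rpsa and Rpl12 had runs of 6, 5 and 7 bases and Rps26 one of 9. Among those with low ratios Rps27 and Rpl35a had runs of 9 and 13 bases and Rpl37a one of 3.

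Ribosomal protein genes supplied a larger share of UMIs in the injured library in 5 of the 6 cell groups, and an equal share in monocyte and macrophage-like cells. Over all kept cells the members made up 16.2% of uninjured and 22.2% of injured UMIs. In fibro-adipogenic progenitor-like cells the share was 15.7% (15.6 to 15.7) in 796 uninjured cells and 30.9% (30.8 to 30.9) in 410 injured cells, a ratio of 1.97 (1.965 to 1.977). Tenocyte-like cells, which make tendon matrix, held 13.8% in 453 cells and 27.3% in 164 cells, a ratio of 1.97 (1.964 to 1.981). The ranges from the lower to the upper quartile of cells did not overlap between libraries in fibro-adipogenic or tenocyte-like cells, at 11.1% to 19.3% against 25.02% to 34.0% in fibro-adipogenic and 10.8% to 16.5% against 18.4% to 31.6% in tenocyte-like cells.

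Blood vessels are lined by endothelial-like cells, which had a share of 16.04% in 2659 uninjured and 24.2% in 462 injured cells, a ratio of 1.51 (1.505 to 1.513). Cluster 9 had 13.7% in 312 and 21.8% in 129 cells, a ratio of 1.59 (1.58 to 1.60). Cells of the monocyte and macrophage class, which enter injured muscle in large numbers, had like shares: 18.2% (18.1 to 18.3) in 78 uninjured and 18.1% (18.1 to 18.1) in 2475 injured cells, a ratio of 0.995 (0.987 to 1.004). Of the uninjured cells 72 lay in cluster 21, led by Retnla, Cd209f and Cd209g, which held 46 injured cells. Most injured cells lay in clusters 1, 4 and 5, led by Arg1, Hp and C1qb. Ratios in this class thus compare different cells, and a change within 1 kind of cell cannot be read from them. The median cell of that class was at 17.3% and 18.1%, so the direction turned with the measure. Within the injured library its clusters ranged from 16.9% in cluster 1 and 17.8% in cluster 5 to 20.3% in cluster 4.

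Glial-like cells, named by genes of the glia in nerves, had a share of 16.01% in 259 uninjured and 27.2% in 65 injured cells, a ratio of 1.70 (1.689 to 1.715). A few deep cells weighed on that value. Among the uninjured cells 7 with at least 10000 UMIs held 20.7% of the class's UMIs and had a member share of 33.3%. These 7 cells held 2083 UMIs of Krt10, 1093 of Krt14, 2110 of Lgals7 and 1617 of Krtdap, genes of skin keratinocytes named here after their values were seen. The other 252 cells held 39, 65, 80 and 0. In the injured library 11 cells were as deep, with 40.4% of the class's UMIs and a member share of 32.6%. Without the cells of at least 10000 UMIs the shares were 11.5% and 23.6%, a ratio of 2.06 (2.04 to 2.08). Lyz2, a defining monocyte and macrophage gene, stood at 3300 CPM (counts per 1000000 UMIs of the group and library) in uninjured glial-like cells, while 7 of 14 markers of that list were at 0 there. The injured cells can include T cells. At Leiden resolution 2 a cluster named glial held 38 uninjured and 57 injured cells, with 4 of 9 glial markers. It was led by Trbc2, Ptprcap and Satb1. Without doublet removal an unnamed cluster of 34 and 44 cells was led by Nkg7, Cd3d and Trbc1. How many T cells the class held was not tested.

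**Figure D1:**
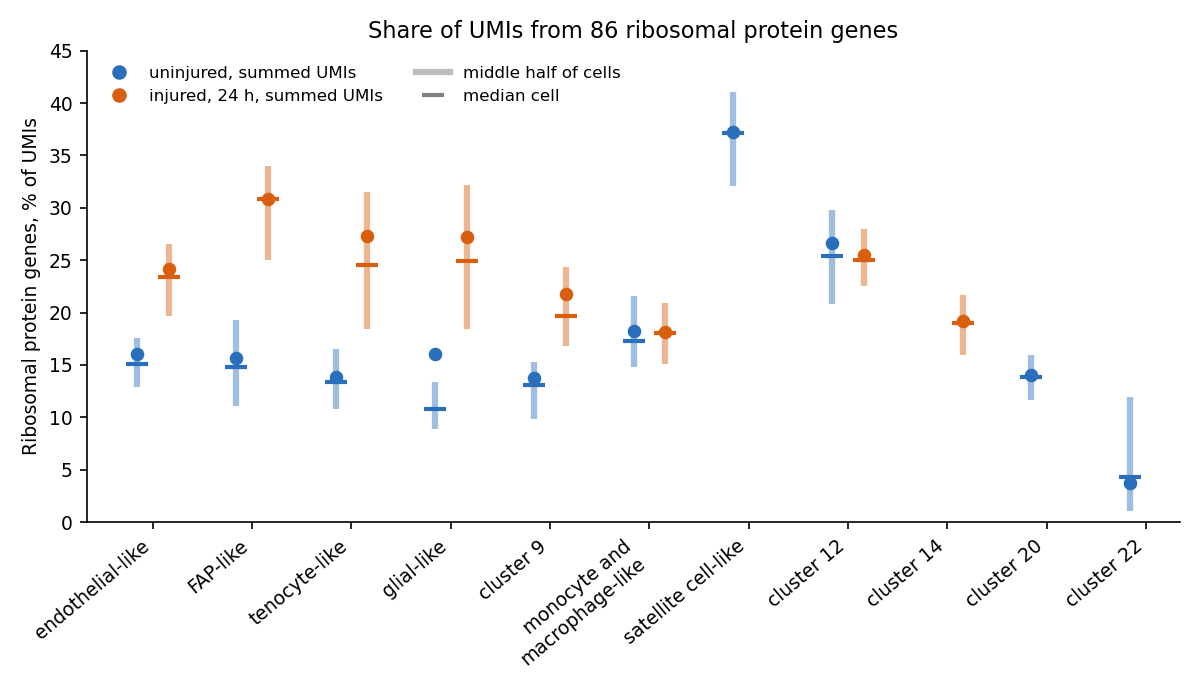
Share of UMIs from the 86 members (vertical axis, percent) by cell group, with uninjured cells in blue and injured cells in orange. Dots give the share of summed UMIs, bars the range between the quartiles of cells and ticks the median cell. The 2 libraries separate in fibro-adipogenic, tenocyte, endothelial and glial-like cells and cluster 9, lie together at 18.2% and 18.1% in monocyte and macrophage-like cells, and satellite cell-like cells are highest at 37.2%.

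The highest share belonged to cells compared in 1 library only. Satellite cell-like cells, the stem cells of muscle, were kept in the uninjured library alone, where 250 cells had a share of 37.2% (37.1 to 37.3) and quartiles of 32.1% and 41.1%. Cluster 12, led by genes of natural killer, T and dendritic cells, had 26.7% in 87 uninjured and 25.5% in 250 injured cells, a ratio of 0.957 (0.950 to 0.963). Cluster 14, an injured cluster led by antigen presentation genes, had 19.2%, and cluster 20, led by muscle fibre genes, 14.02%. The haemoglobin-led cluster 22 had 3.71%, and barcodes under 200 genes 0.272% uninjured and 0.382% injured.

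Within a class the share also differed between clusters of the same library. Uninjured fibro-adipogenic cells of cluster 15 had 19.2%, those of cluster 6 14.2% and those of cluster 23 12.7%. Among uninjured endothelial-like cells cluster 10 had 20.1% and clusters 2, 3 and 8 between 14.4% and 16.2%. Cluster 10 held enough cells of both libraries to be compared by itself, and there the share was 20.1% in 378 uninjured and 26.0% in 59 injured cells, a ratio of 1.296 (1.288 to 1.304). The glial-like cluster 17 likewise had 19.0% and 27.7%, a ratio of 1.45 (1.44 to 1.47), with the limits given above for both libraries of its class. Its median cell was at 9.66% uninjured and 25.8% injured. The uninjured quartiles were 8.30% and 12.0%, so the summed uninjured share lay above the middle range of its cells.

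Because injured cells were deeper, shares were also read at matched depth. Endothelial-like cells with 3500 to 5000 UMIs had 16.5% in 478 uninjured and 21.7% in 138 injured cells. Fibro-adipogenic cells of that depth had 15.9% and 22.3%, and with 7500 to 10000 UMIs 16.3% and 26.2%. Tenocyte-like cells with 5000 to 7500 UMIs had 14.3% and 18.3%, and with 7500 to 10000 UMIs 13.99% and 24.97%. The share of injured fibro-adipogenic cells thus went from 22.3% in the shallowest to 32.5% in the deepest bin, while that of uninjured cells stayed between 14.5% and 16.3%. In monocyte and macrophage-like cells the only bin filled in both libraries, 3500 to 5000 UMIs, had 19.6% and 19.2%. Thinning every cell to 1500 UMIs left the median cell at 14.8% and 30.3% in fibro-adipogenic and 15.1% and 23.4% in endothelial-like cells.

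**Figure D2:**
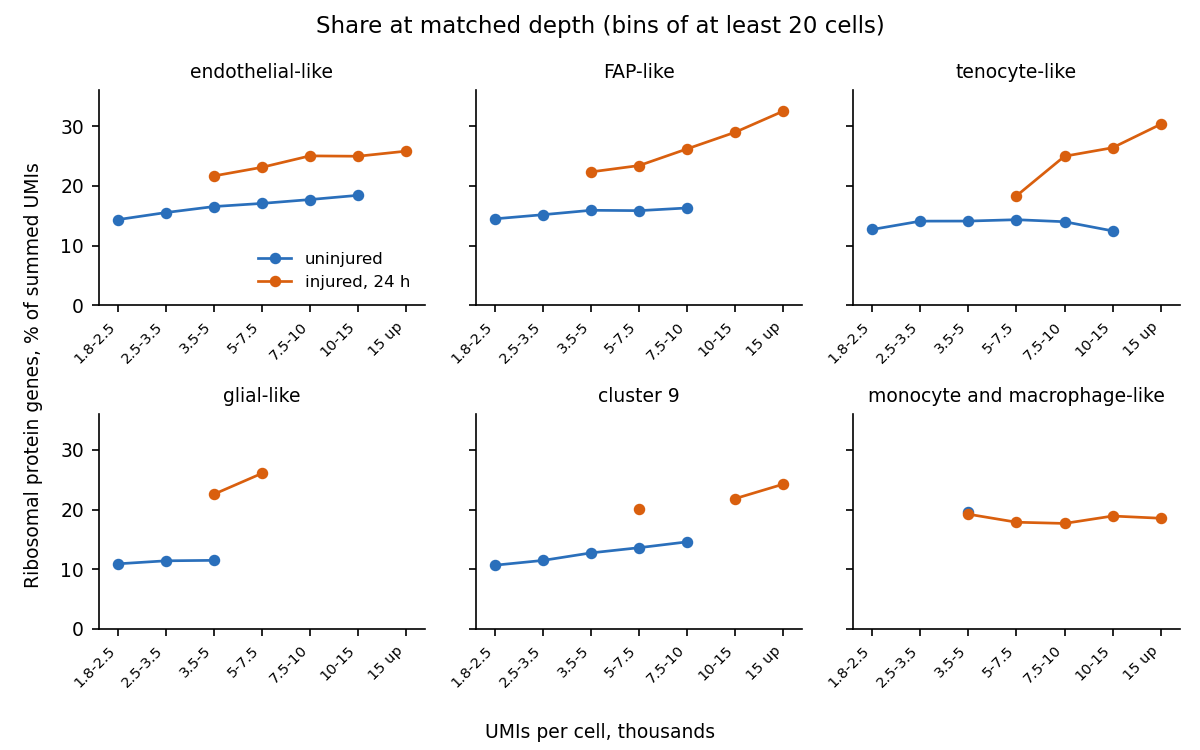
Share of summed UMIs from the members (vertical axis, percent) against UMIs per cell (horizontal axis, bins, in units of 1000), for uninjured (blue) and injured (orange) cells of 6 groups; bins with fewer than 20 cells are left out. Where both libraries fill a bin the injured share is higher, except in monocyte and macrophage-like cells, with 19.6% uninjured and 19.2% injured.

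Most single members were higher in these 5 groups at the main settings. A member was counted as higher or lower at 1.5-fold in CPM, by size alone. Of 85 members with at least 20 UMIs in endothelial-like cells 50 were higher and 1 lower, while of all 11263 genes 19.0% were higher and 33.1% lower. In fibro-adipogenic cells 74 of 85 were higher and 0 lower, against 23.0% and 40.6% of all genes. Tenocyte-like cells had 77 of 85 higher and 0 lower, against 19.1% and 34.1%. In glial-like cells 60 of 84 were higher and 0 lower, against 21.5% and 37.9%, and in cluster 9 53 of 84 and 0, against 17.6% and 29.8%. Monocyte and macrophage-like cells had 8 of 85 higher and 2 lower, against 19.6% and 44.1%, so that most members stayed within 1.5-fold there. The shares of all genes are no like measure in that class, which held 283966 uninjured and 18237532 injured UMIs. Counts of 0 were set to 3, and genes with few uninjured UMIs can pass 1.5-fold through counting alone, while the members are abundant. At 2-fold the members higher and lower were 14 and 0 in endothelial-like cells (10.7% and 19.7% of all genes), 45 and 0 in fibro-adipogenic cells (14.9% and 29.1%) and 44 and 0 in tenocyte-like cells (9.79% and 20.9%). They were 18 and 0 in glial-like cells (12.0% and 25.5%), 12 and 0 in cluster 9 (8.35% and 16.3%) and 3 and 1 in monocyte and macrophage-like cells (11.3% and 32.4%). At 1.5-fold, the count in cluster 9 was 11 when cells were clustered at a finer resolution, and that in glial-like cells 20 when only cells with at least 3333 UMIs were used. Most members were thus not higher in these runs. The shares of all genes in the same runs are not given here, so no excess of members is read from these counts.

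The median log2 ratio of the 77 core genes was 1.01 in fibro-adipogenic and 1.01 in tenocyte-like cells. It was 0.77 in glial-like cells, 0.67 in cluster 9, 0.62 in endothelial-like cells and 0.07 in monocyte and macrophage-like cells. The median of all genes compared lay below 0 in every group, between -0.40 in monocyte and macrophage-like cells and -0.15 in cluster 9. Ratios centred on that median are therefore higher, and the summed ratio of monocyte and macrophage-like cells becomes 1.31, with 28 members higher and 1 lower at 1.5-fold against 31.5% and 32.6% of all genes. The median of that class rests on 283966 uninjured against 18237532 injured UMIs, with counts of 0 set to 3. Genes with few uninjured UMIs can lower that median, and their part in the 1.31 was not tested. All 77 core genes had a ratio above 1 in fibro-adipogenic, tenocyte and glial-like cells, 75 in cluster 9 and 74 in endothelial-like cells. In monocyte and macrophage-like cells 45 did, with 30 intervals wholly above and 23 wholly below 1. With medians below 0, most of all genes compared had a ratio below 1 in each group. Their exact shares above 1, and with intervals clear of 1, are not given here.

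**Figure D3:**
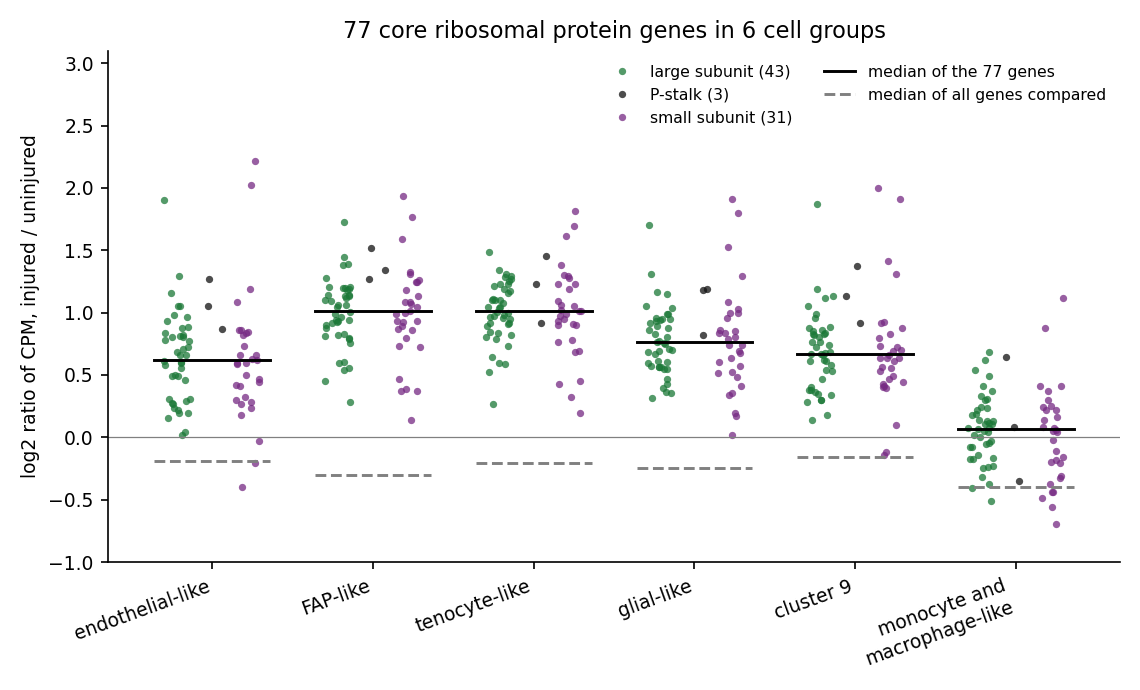
Log2 ratio of CPM, injured over uninjured (vertical axis), of each of the 77 core genes in 6 cell groups; green, black and purple dots are large subunit, stalk and small subunit genes. Solid lines are the medians of the 77 genes (1.01 in fibro-adipogenic, 0.07 in monocyte and macrophage-like cells), and dashed lines the medians of all genes compared, which lie below 0.

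The subunits differed little. Median log2 ratios of large and small subunit genes were 1.01 and 1.00 in fibro-adipogenic cells, 1.01 and 1.01 in tenocyte-like cells, 0.66 and 0.60 in endothelial-like cells and 0.07 and 0.05 in monocyte and macrophage-like cells. There were 0.801 small subunit UMIs per UMI of large subunit and stalk in uninjured and 0.762 in injured endothelial-like cells. That ratio was 0.732 and 0.733 in tenocyte-like and 0.854 and 0.810 in monocyte and macrophage-like cells.

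The stalk, through which elongation factors dock on the large subunit, is built from Rplp0 and pairs of Rplp1 and Rplp2. Its genes had higher median log2 ratios than either subunit in the 5 groups, between 1.05 in endothelial-like and 1.34 in fibro-adipogenic cells. Rplp1 went from 3266 to 9376 CPM in fibro-adipogenic cells, 2.87-fold (2.81 to 2.93), and was the most abundant of the 3 in both libraries. In tenocyte-like cells it went from 3017 to 8251 CPM and in endothelial-like cells from 2590 to 6259 CPM. In monocyte and macrophage-like cells Rplp1 was lower instead, from 3948 to 3101 CPM, a ratio of 0.786 (0.740 to 0.834), while Rplp0 went there from 1954 to 3048 CPM, a ratio of 1.56 (1.43 to 1.70). Rplp0 and Rplp2 are named to complete the stalk, after their values were seen. Rplp2 went from 2951 to 3132 CPM in that class, a ratio of 1.06 (0.991 to 1.14).

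To set a common change apart from changes of single members, each member was also taken as a share of all member UMIs and called when it was 25% higher or lower by the same factor. In endothelial-like cells 17 members were higher and 16 lower by this measure, where all genes set against the summed members gave 12.0% and 70.7%. The counts were 13 and 13 in fibro-adipogenic cells (10.5% and 78.5% of all genes), 9 and 11 in tenocyte-like cells (5.72% and 83.1%) and 14 and 12 in glial-like cells (10.8% and 73.6%). They were 13 and 10 in cluster 9 (8.57% and 73.5%) and 17 and 13 in monocyte and macrophage-like cells (27.4% and 52.3%). Of the core genes 9 had intervals above 1 in all 6 groups and 13 had intervals below 1 in all 6. Another 23 had intervals above 1 in some groups and below 1 in others. Shares of a common total must fall for some members when they rise for others, and the intervals of abundant members are narrow. The same counts over all genes are not given here, so no excess of members is read from them.

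Rps2, Rpsa and Rpl12 led the members in most groups. Rps2 (ENSMUSG00000044533, chromosome 17, 24718116 to 24721929) encodes a protein at the entry of the messenger channel of the small subunit. It stood at 1526 CPM in uninjured and 7082 CPM in injured endothelial-like cells, 4.64-fold (4.55 to 4.74). In fibro-adipogenic cells it went from 1959 to 7471 CPM, 3.81-fold (3.72 to 3.91), and in tenocyte-like cells from 2094 to 6394 CPM, 3.05-fold (2.96 to 3.16). In monocyte and macrophage-like cells, where the summed members had like shares in both libraries, Rps2 still went from 1444 to 3135 CPM, 2.17-fold (1.97 to 2.40). Among all members it moved from 0.951% to 2.93% of member UMIs in endothelial-like cells. Injured Rps2 levels lay above uninjured levels in each of the 6 groups, and among these groups the highest uninjured level, 2094 CPM, was below the lowest injured level, 3135 CPM. Satellite cell-like cells are not among them, and how many other genes separate in this way was not counted.

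Rpsa (ENSMUSG00000032518, chromosome 9, 120127689 to 120132369), a small subunit protein that also occurs as a laminin receptor, went from 712 to 2899 CPM in endothelial-like cells, 4.07-fold (3.95 to 4.20). It was 3.40-fold (3.29 to 3.52) higher in fibro-adipogenic and 3.51-fold (3.37 to 3.67) in tenocyte-like cells. Monocyte and macrophage-like cells had a change from 1145 to 1520 CPM, a ratio of 1.33 (1.19 to 1.49), below the 1.5-fold limit. Rpl12 (ENSMUSG00000038900, chromosome 2, 32961559 to 32965345), which lies at the base of the stalk, went from 641 to 2401 CPM in endothelial-like cells, 3.75-fold (3.63 to 3.87). Its level in monocyte and macrophage-like cells went from 764 to 1227 CPM, 1.61-fold (1.405 to 1.844). Rps26, at the messenger exit of the small subunit, was 1.83-fold (1.64 to 2.06) to 2.88-fold (2.64 to 3.14) higher over the 6 groups, the lowest value in monocyte and macrophage-like and the highest in glial-like cells. Rps12 was 3.24-fold (3.11 to 3.37) higher in tenocyte-like cells, from 1288 to 4168 CPM, but had 1916 and 1890 CPM in monocyte and macrophage-like cells.

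At the other end stood Rps27, Rps14, Rps29 and the Rps27 copy Rps27rt, small subunit proteins or copies of one. Rps27 (ENSMUSG00000090733, chromosome 3, 90212522 to 90213651) went from 4133 to 3143 CPM in endothelial-like cells, a ratio of 0.761 (0.745 to 0.776). It stood at 3348 and 3682 CPM in fibro-adipogenic and at 2807 and 3208 CPM in tenocyte-like cells. Its level in the monocyte and macrophage class went from 4515 to 3213 CPM, a ratio of 0.712 (0.673 to 0.753). The injured levels of Rps27 lay between 3140 and 3682 CPM in the 6 groups, a narrower range than the uninjured 2807 to 4515 CPM. Relative to all members its log2 ratio was between -0.99 in endothelial-like and -0.48 in monocyte and macrophage-like cells.

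Rps29, a small zinc-binding protein of the small subunit, was the most abundant member of the uninjured library at 4453 CPM over all cells, ahead of Rpl41 at 4422 CPM. Rps29 stood at 9336 CPM in uninjured and 5771 CPM in injured monocyte and macrophage-like cells, a ratio of 0.618 (0.595 to 0.643), the lowest of the core genes there. In endothelial-like cells it had 5013 and 4903 CPM, and in tenocyte-like cells 3037 and 4075 CPM, a ratio of 1.34 (1.3001 to 1.3846). Rps14 had ratios from 0.679 (0.642 to 0.718) in monocyte and macrophage-like to 1.29 (1.27 to 1.32) in fibro-adipogenic cells. Among large subunit genes Rpl35a and Rpl37a were low. Rpl35a had 2871 and 2911 CPM in endothelial-like cells and a relative log2 ratio between -0.57 and -0.31 over the groups. Rps27 and Rps27rt are close copies and reads can be split between them, so the 2 are not separate evidence.

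**Figure D4:**
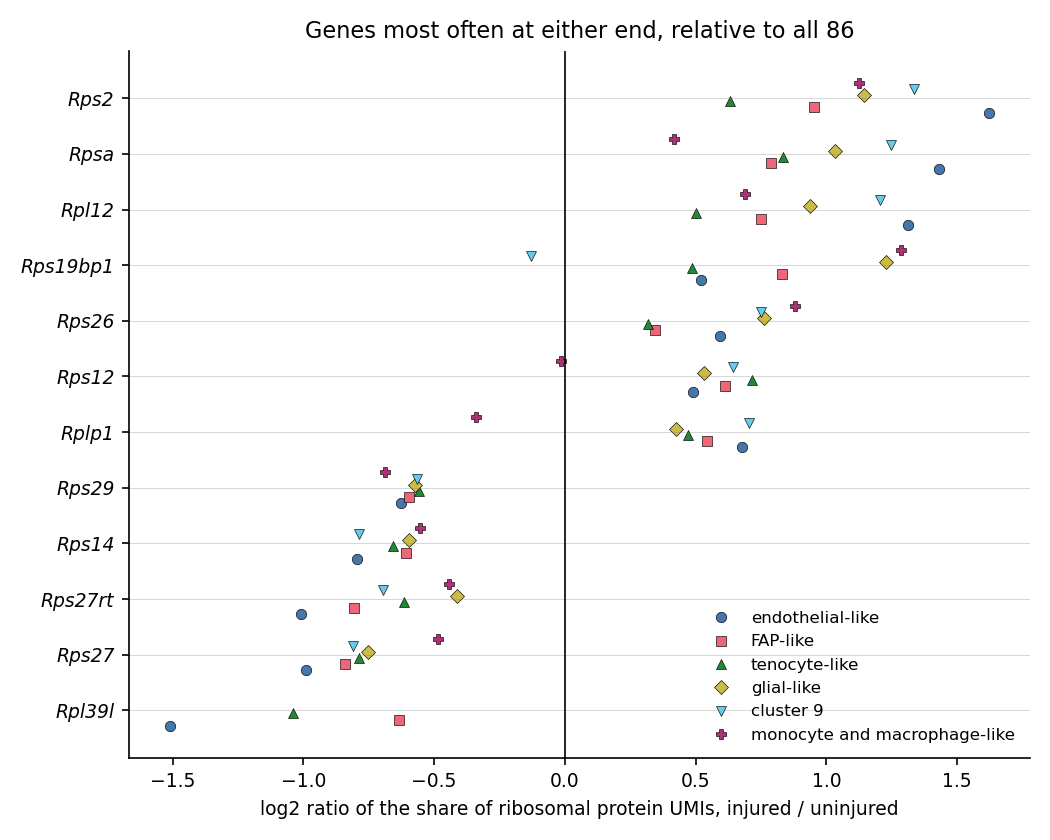
Log2 ratio of each gene's share of all member UMIs, injured over uninjured (horizontal axis), for the 12 members most often among the 6 highest or 6 lowest of a group; each symbol is a cell group. Rps2, Rpsa and Rpl12 lie right of 0 in all 6 groups, Rps27, Rps27rt, Rps14 and Rps29 left of 0 in all 6, and Rplp1 lies left of 0 in monocyte and macrophage-like cells alone.

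Rps2 and Rps27 kept their relative directions within clusters that held both libraries. In endothelial-like cluster 10 Rps2 went from 1957 to 6424 CPM and Rpsa from 959 to 3217 CPM, relative log2 ratios of 1.34 and 1.37, and Rps27 from 5397 to 3459 CPM, a relative log2 ratio of -1.02. In the glial-like cluster 17, whose injured cells can include T cells, the relative values were 0.95 for Rps2, 0.95 for Rpsa and -0.68 for Rps27. Any deep uninjured cells in that cluster were not removed for these values. Cluster 12, whose summed share was 26.7% uninjured and 25.5% injured, had 2473 and 3875 CPM of Rps2, a relative log2 ratio of 0.71, and 6709 and 4727 CPM of Rps27, one of -0.44. Without glial-like cells of at least 10000 UMIs Rps2 was 5.20-fold and Rps27 1.09-fold, against 3.76-fold and 1.01-fold with them.

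Coding length went with the relative ratio only weakly. Over the 77 core genes Pearson's r of log length with the relative log2 ratio was between 0.218 in glial-like and 0.364 in monocyte and macrophage-like cells, a description across genes of the same libraries. The 25 shortest genes, up to 399 coding bases, had a median relative log2 ratio of -0.07 in monocyte and macrophage-like cells, and the 25 longest, from 582 bases, 0.19. In endothelial-like cells the medians were 0.02 and 0.21. The 27 core genes with a run of at least 8 C or T bases at the start had a median log2 ratio of 1.10 in fibro-adipogenic cells, and the 30 without one 1.03. These medians were 0.77 and 0.66 in endothelial-like cells, so medians were above 0 with and without the run.

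The 4 X-linked members are of interest because the libraries differed in sex-linked transcripts. Rpl10, a late-joining large subunit protein next to the catalytic centre, went from 1649 to 3419 CPM in endothelial-like cells, 2.07-fold (2.03 to 2.12), but from 2829 to 3442 CPM in fibro-adipogenic and from 3005 to 3610 CPM in tenocyte-like cells. Its injured levels were thus alike in these 3 classes and the uninjured levels were not. Rps4x had ratios between 0.739 (0.690 to 0.793) in monocyte and macrophage-like and 1.62 (1.56 to 1.67) in tenocyte-like cells. Rpl39 went from 1590 to 3303 CPM and Rpl36a from 1117 to 2049 CPM in endothelial-like cells, and the ratios of both were above 1.5 in the 5 groups and 1.16 and 0.970 in monocyte and macrophage-like cells. The part of the sex-linked difference in these values was not tested.

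Cell groups of the same library differed less in their member composition than in the total. Among core genes the share of member UMIs in the highest class over that in the lowest had a median of 1.35 among uninjured cells and 1.23 among injured cells. Rps29 made up 5.13% of member UMIs in uninjured monocyte and macrophage-like cells and 1.51% in satellite cell-like cells, 3.40-fold (3.25 to 3.57). Rpl10 made up 2.17% in uninjured tenocyte-like and 1.03% in endothelial-like cells, 2.11-fold (2.05 to 2.17). In the injured library Rps29 was again highest in monocyte and macrophage-like cells, at 3.19%, and lowest in tenocyte-like cells, at 1.49%. Rpl10 was highest in monocyte and macrophage-like cells, at 1.98%. Satellite cell-like cells were lowest among the uninjured classes in Rps29, Rps27l and Rpl36al as shares of member UMIs.

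Over 13 combinations of class and library, the log2 CPM of a core gene followed the sum of the other members with a median Pearson's r of 0.951. Rps18 followed it closest, at 0.993, and Rps29, Rps27 and Rps14 least, at 0.255, 0.449 and 0.654. The points share libraries and the total they are scaled by. Outside the members, the genes most like the summed members among 1136 genes were processed copies and translation genes: Rpl23a-ps3 at 0.990, Gm9493 at 0.973, Rps18-ps3 at 0.964, the elongation factors Eef1b2 at 0.959 and Eef1a1 at 0.959, Rps12-ps3 at 0.958, Gnb2l1 at 0.956, Naca at 0.942, Rpl9-ps6 at 0.939 and Gm2000 at 0.939. Pseudogenes left out by their suffix held 34950 uninjured and 105013 injured UMIs, and reads can be split between a member and such a copy. How the authors counted reads that match several genes was not given in these sources.

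Several paralogs differed from their partner. Rps27l, a paralog of Rps27 that the tumour suppressor p53 induces, supplied 8.67% (8.40 to 8.95) of the pair's UMIs in uninjured and 24.3% (23.6 to 24.9) in injured endothelial-like cells. Its own level went from 392 to 1007 CPM while that of Rps27 was lower. The share was 12.1% and 23.0% in fibro-adipogenic, 13.97% and 23.0% in tenocyte-like and 7.90% (6.54 to 9.45) and 20.5% (20.2 to 20.8) in monocyte and macrophage-like cells. The uninjured and injured shares of Rps27l did not overlap in any of the 6 groups: uninjured ones lay at or below 13.97% and injured ones at or above 20.5%. How many other pairs or genes separate in this way was not counted. The share of Rpl36al, given below, was also higher in the injured cells of each of these groups. Satellite cell-like cells had the lowest share, 6.93%.

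Rpl36al, a paralog of Rpl36a, supplied 39.5% (35.3 to 43.8) of its pair in uninjured and 54.2% (53.7 to 54.6) in injured monocyte and macrophage-like cells. Its level there went from 740 to 1299 CPM and that of Rpl36a from 1134 to 1100 CPM. In the other 5 groups the share was between 26.0% and 30.3% uninjured and between 31.8% and 34.2% injured, and it was 15.9% in satellite cell-like cells. Rpl22l1, the paralog of the RNA-binding Rpl22, moved the other way. It supplied 37.9% (37.1 to 38.8) and 30.9% (29.9 to 31.9) of its pair in endothelial-like and 52.9% and 44.7% in fibro-adipogenic cells, although its CPM was higher in both injured groups. The Rpl22l1 share was highest in satellite cell-like cells, at 54.6% (52.7 to 56.4), and was 34.8% and 34.4% in monocyte and macrophage-like cells.

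**Figure D5:**
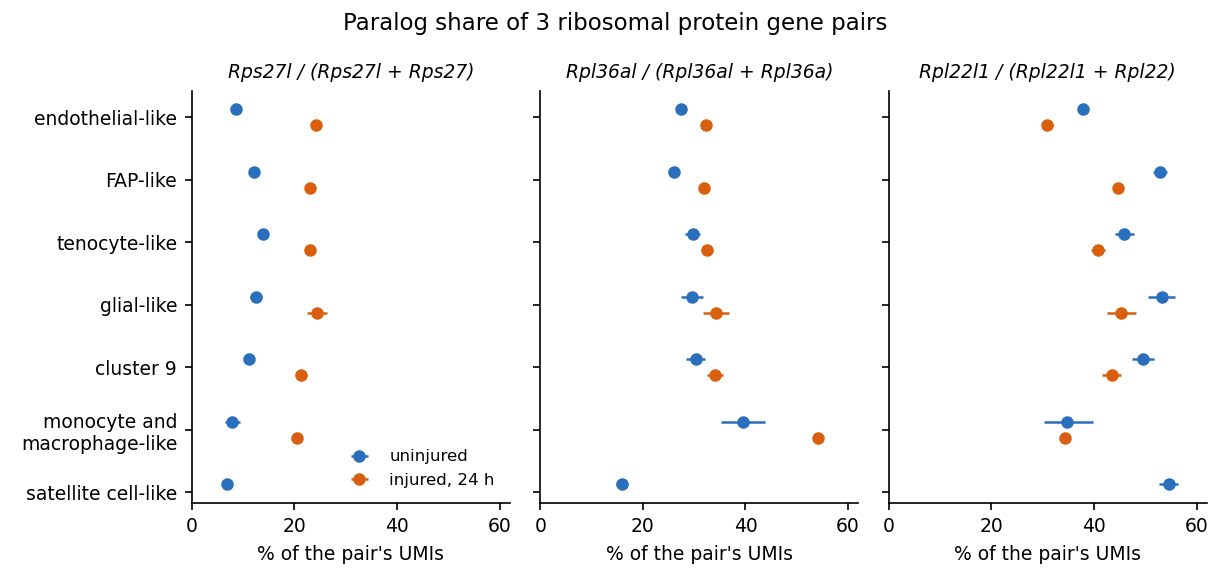
Share of a pair's UMIs that came from the paralog (horizontal axis, percent, with 95% counting intervals) for Rps27l, Rpl36al and Rpl22l1 in 7 cell groups, uninjured in blue and injured in orange. Rps27l is at 6.93% to 13.97% uninjured and at 20.5% to 24.4% injured, Rpl36al is highest in injured monocyte and macrophage-like cells at 54.2%, and Rpl22l1 is lower in injured cells of 5 groups, with 34.8% and 34.4% in monocyte and macrophage-like cells.

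Paralogs known for narrow expression were scarce. Rpl3l, which replaces Rpl3 in striated muscle, had 46 UMIs in the 116 uninjured cells of cluster 20, or 132 CPM, and supplied 9.85% (7.30 to 12.9) of its pair there. In the other cell groups and clusters it was at or below 8.23 CPM, the value of 3 UMIs in uninjured cluster 12, with at most 38 UMIs. Rpl3l lies beside Rps2 on chromosome 17, at 24727820 to 24736143. Rpl39l, best known from the testis, stood at 27.1 CPM in uninjured and 26.0 CPM in injured tenocyte-like cells and at 13.003 and 16.5 CPM in fibro-adipogenic cells. Uninjured satellite, glial and monocyte and macrophage-like cells had 0 UMIs of Rpl39l, with upper limits of 4.14, 4.04 and 12.99 CPM. The last limit is close to the uninjured fibro-adipogenic level, so the 0 there does not set the 2 classes apart. Cells with a UMI made up 9.05% of uninjured tenocyte-like cells against 0.714% of endothelial-like cells, at median depths of 4562 and 2804 UMIs. Rpl7l1 supplied between 2.02% and 5.83% of its pair wherever it was measured in these classes, and Rpl10l had 0 UMIs beside 65323 of Rpl10 in injured monocyte and macrophage-like cells.

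Other genes of translation were taken from fixed lists, and are described by their median log2 ratio. Ribosome assembly genes, which make and modify ribosomal RNA, had medians above those of the ribosomal proteins, from 2.52 in fibro-adipogenic cells, where 19 of 20 were at least 1.5-fold higher against 23.0% of all genes, to 1.17 in monocyte and macrophage-like cells, where 14 of 20 were against 19.6%. Nhp2, a part of the enzymes that modify ribosomal RNA, went from 52.0 to 572 CPM in fibro-adipogenic and from 59.9 to 202 CPM in monocyte and macrophage-like cells, there 3.38-fold (2.11 to 5.81) from 17 uninjured UMIs. Elongation factors had medians between 1.04 and 1.59 in the 5 groups and 0.24 in monocyte and macrophage-like cells. Eif5a, which eases the making of difficult peptide bonds, went from 417 to 2389 CPM in fibro-adipogenic cells, 5.73-fold (5.43 to 6.06).

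Of 34 initiation factors 25 were higher and 1 lower in fibro-adipogenic cells, against 23.0% and 40.6% of all genes. In the monocyte and macrophage class 12 were higher and 3 lower, against 19.6% and 44.1%. The 2 forms of the helicase that opens messages for the small subunit went apart in both: Eif4a1 was 2.87-fold (2.69 to 3.06) and 3.76-fold (3.102 to 4.613) higher, and Eif4a2 3.15-fold (2.82 to 3.53) and 2.97-fold (2.14 to 4.04) lower. Mitochondrial ribosomal proteins, which serve the separate ribosome of that organelle, had medians from 0.24 in monocyte and macrophage-like to 0.93 in fibro-adipogenic cells. The cytosolic ribosomal proteins that the naming rule leaves out differed among themselves. Gnb2l1, the scaffold protein on the head of the small subunit, was 2.31-fold (2.22 to 2.40) higher in endothelial-like cells, while Fau, a ribosomal protein made as a fusion with a ubiquitin-like protein and named here after its values were seen, had a log2 ratio of -0.45. Regulators of mTOR and its targets had medians between -0.19 and 0.28.

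Markers of other cell types also differed between the libraries. Outside glial and monocyte and macrophage-like cells the 14 monocyte and macrophage markers summed to between 34.7 and 98.0 CPM in uninjured cells, with 2 to 6 at 0, and between 238 and 278 CPM in injured cells, with 0 at 0. The same list summed to 23285 CPM in the injured monocyte and macrophage class itself. Muscle fibre markers summed to between 589 and 894 CPM uninjured and between 66.9 and 198 CPM injured over the 6 groups. The 12 endothelial markers summed to between 1039 and 2274 CPM uninjured and between 108 and 373 CPM injured in fibro-adipogenic, tenocyte, glial and monocyte and macrophage-like cells, with 2 at 0 in injured glial-like cells. In cluster 9 they went from 15437 to 5653 CPM, and in endothelial-like cells themselves from 33139 to 11268 CPM. The 7 erythroid markers went from 2656 to 974 CPM in fibro-adipogenic cells, and lay between 280 and 585 CPM uninjured and between 105 and 764 CPM injured in the other 5 groups. Their part in the results was not tested.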

How the data were processed

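The 2 single-cell libraries, from uninjured and injured muscle, were analysed from the filtered UMI count matrices that the authors deposited. Cell Ranger 2.1.1 and the mm10 build are named per the submitters' processing notes. Totals ran from 22994502 to 39014762 UMIs, and with 1 library per group only exact counting intervals were computed (Clopper-Pearson for shares, conditional binomial for ratios).

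Cells with at least 200 genes and at most 20% mitochondrial UMIs were kept. The automatic threshold of Scrublet marked 1 barcode per library, so the highest scores were removed instead, at 0.8% per 1000 barcodes (249 and 161). Cells were scaled to 10000, and 2000 variable genes without the members, 30 principal components, 15 neighbours and Leiden resolution 1 gave 24 clusters (scanpy 1.11.5, leidenalg 0.10.2, scipy 1.17.1, Python 3.11.15). Libraries were not integrated. A marker counted as present in a cluster with at least 20% of cells positive and a mean of at least 2 times the median over clusters, and a name needed 3 markers. This naming rule was set after seeing the data.

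Members and lists were chosen with earlier results of these data known. Genes named are the 6 most abundant members per library, the 6 highest and 6 lowest relative ratios per group, the 6 most variable between groups, paralogs, X-linked members, up to 4 genes per list and the 10 most similar genes. A few genes that met this rule are not reported here. Ratio code was tested on simulated data. Alternatives were other resolutions, filters, scalings, thresholds and depths.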

Additional observations from a re-analysis of the deposited data

Results flagged for a closer look

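Members were picked out here when their injured over uninjured CPM was at least 25% higher in 1 cell group and lower by the same factor in another, with intervals clear of 1. The 10 genes given here were lowest in monocyte and macrophage-like cells. The difference between the groups was not tested, since each library is 1 sample, and the uninjured monocyte and macrophage class held 78 cells. Of these 72 lay in cluster 21, which held 46 of the injured cells.

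Rplp1 of the stalk had a ratio of 2.87 in fibro-adipogenic progenitor-like and 0.786 in monocyte and macrophage-like cells. Rpl13a had 1.91 in fibro-adipogenic and 0.772 in monocyte and macrophage-like cells, and Rps21 2.06 and 0.739 in the same groups. Rps14 had 1.29 in fibro-adipogenic and 0.679 in monocyte and macrophage-like cells.

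Tenocyte-like cells had the highest ratio of 5 others. Rpl37a stood at 1.73 there and at 0.701 in monocyte and macrophage-like cells, and Rps15 at 1.72 and 0.770. Rps29 stood at 1.34 and 0.618, Rps4x at 1.62 and 0.739, and the near copy Rps27rt at 1.29 and 0.732. Rps28 was highest in endothelial-like cells, at 1.58, with 0.796 in monocyte and macrophage-like cells.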

How the results depend on the processing

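No paired analysis was possible because each group is 1 library. Counts of members in the alternative runs stand without the share of all genes in the same run, except where it is stated. Ratios are those of the summed members, and where the cause of a change is not in the setting itself, the cause was not tested. The summed ratio stayed above 1 in endothelial, fibro-adipogenic, tenocyte and glial-like cells and cluster 9 under each alternative run. In monocyte and macrophage-like cells, at 0.995, it was 1.31 centred on the median of all genes, 1.00 with cells thinned to 1500 UMIs and 1.01 as a mean of per-cell shares, so it has no stable direction.

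Centring on the median of all genes gave 1.72 in endothelial, 2.42 in fibro-adipogenic, 2.28 in tenocyte and 2.01 in glial-like cells and 1.77 in cluster 9, with 28 members higher and 1 lower in monocyte and macrophage-like cells, where 31.5% and 32.6% of all genes were at that scaling. Scaled to UMIs without the members the ratios were 1.67, 2.40, 2.34, 1.96 and 1.75 in the same order. Without haemoglobin and mitochondrial genes they were 1.47, 1.92, 1.93, 1.66 and 1.55, and 0.965 in monocyte and macrophage-like cells. Thinning gave 1.504, 1.87, 1.802, 2.09 and 1.58, with 0 members lower in endothelial and 1 in tenocyte-like cells. The mean of per-cell shares gave 1.502, 1.88, 1.799, 2.104 and 1.58, with 0 lower in endothelial-like cells. Cells with at least 3333 UMIs gave 1.42, 1.94, 1.96, 1.22 and 1.54, 0.964 in monocyte and macrophage-like cells, and 20 members higher in glial-like cells. Naming each cell by its own marker score gave 1.42, 1.86, 1.95, 1.94 and 1.62.

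Keeping ribosomal protein genes in the clustering gave 1.51 in endothelial (2 members lower), 1.98 in tenocyte, 2.48 in glial and 0.972 in monocyte and macrophage-like cells and 1.60 in cluster 9. Without doublet removal the ratio was 1.96 in fibro-adipogenic, 1.93 in tenocyte and 1.57 in glial-like cells, with 2 members lower in endothelial and 22 relatively lower in glial-like cells. Leiden resolutions 0.5 and 2 both gave 1.96 in fibro-adipogenic and 2.05 in tenocyte-like cells, and resolution 2 gave 1.65 in glial-like cells and 1.19 in cluster 9, with 11 members higher there. Leaving out cells of at least 10000 UMIs, chosen after seeing the data, gave 2.06 in glial-like cells.

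At 2-fold, 14 members were higher in endothelial, 45 in fibro-adipogenic, 44 in tenocyte, 18 in glial and 3 in monocyte and macrophage-like cells and 12 in cluster 9, with 0 lower in endothelial and 1 in monocyte and macrophage-like cells. With a minimum of 1 UMI, 2 members were lower in endothelial, 1 in fibro-adipogenic and 1 in tenocyte-like cells, and with a minimum of 100 UMIs 0 in endothelial and 1 in monocyte and macrophage-like cells. At 1.5-fold relative to all members, 8 were higher and 5 lower in endothelial, 5 and 7 in fibro-adipogenic, 3 and 5 in tenocyte, 6 and 2 in glial and 8 and 2 in monocyte and macrophage-like cells, and 6 and 3 in cluster 9.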
